A study of Mus musculus with 2 samples.

Results

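The MYC network is a set of transcription factors of the basic helix-loop-helix leucine zipper class, and 10 of its genes were followed here between 2 mouse osteosarcoma cell lines. Members were the probe sets whose only gene symbol in the platform's annotation was Myc, Mycn, Mycl, Max, Mxd1, Mxd3, Mxd4, Mxi1, Mnt or Mlx. This gave 24 of the 45037 non-control probe sets on the array and 10 of 18193 named genes, and no probe set carried a member together with another gene. Dunn is the parental line, labelled non-metastatic, and LM8 is its subline, labelled highly metastatic, which was selected in mice for spread to the lung. Neither line was treated, both were grown in Eagle's minimum essential medium to which 10% serum of fetal calves, glutamine, antibiotics and non-essential amino acids (1%) had been added, and labelling started from 10 µg of total RNA. One sample of each line was hybridised to an Affymetrix mouse genome array, so there was no replicate, no test of significance was possible, and every difference holds for these 2 arrays.

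MYC proteins bind DNA as dimers with MAX at the E-box, the sequence CACGTG, and raise transcription of genes for ribosome production, metabolism and growth. The MXD proteins and MNT compete for MAX, recruit SIN3 and histone deacetylases, and repress genes with the same site, so the balance between the MYC and MXD arms is linked to growth on one side and to rest and differentiation on the other. MLX is a second hub that pairs with MNT, with some MXD proteins and with the glucose-sensing Mondo proteins. MYC lies in a region that is often gained in human osteosarcoma, and the mouse gene is on chromosome 15.

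Signals were the linear MAS5 values deposited by the authors. A signal under the array's median was set to that floor, 21.06 for Dunn and 18.96 for LM8, and probe sets above the floor on 1 or both arrays count as measured. Of the 24 member probe sets 19 were measured, with every gene represented, and 8 of the 19 had 1 array at its floor. A fold is then a lower bound, except on the Mxd1 probe set, whose LM8 signal lies under the Dunn floor and which has no readable direction. Of the 25144 measured probe sets, 5.91% were higher in LM8 by 2-fold or more and 7.79% were lower by as much. Of 9 osteoblast markers 7 were above the floor in each line, with the osteoblast transcription factor gene Sp7 at 687 in Dunn and 743 in LM8. The bone matrix gene Ibsp (239 and 96.6) and the parathyroid hormone receptor gene Pth1r (1115 and 492) were 2-fold lower in LM8, and the osteocyte genes Dmp1 and Phex lay below both floors. Macrophage markers were dim, with a summed signal of 271 over 8 genes in Dunn and 134 in LM8. Of the 8, 6 exceeded the floor on the Dunn array and 2 on the LM8 array, and Ptprc lay below it on both. The Dunn array had 1 of 5 endothelial, 3 of 5 epithelial and 2 of 4 lymphoid markers over its floor, and the LM8 array had 1, 1 and 2. The highest signal among them was 84.1 in Dunn and 68.5 in LM8 (both Ighm), and the part of other cell types in the results below was not tested.

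Mycn was higher and Mxd4 lower in LM8, whereas Myc was lower by less than 2-fold. With each gene read from the brightest of its measured probe sets, 1 of 10 member genes was at least 2-fold higher in LM8 (Mycn), 1 was at least 2-fold lower (Mxd4) and 8 lay between. Over all 11830 measured genes the shares were 6.51% and 8.84%. By probe set, 3 of 19 passed 2-fold upwards in LM8, 2 passed it downwards and 14 did neither. The median log2 ratio of LM8 over Dunn was -0.19 for the 10 member genes and -0.08 for all measured genes. The gene counts were near those of the array as a whole. By probe set the shares were 15.8% higher and 10.5% lower, against 5.91% and 7.79% of all measured probe sets, where 2 of the 3 higher ones belong to Mxd3 and both lower ones to Mxd4. Both of these Mxd3 probe sets and 1 of the Mxd4 pair had an array at its floor. Of the 11 member probe sets above both floors, 1 was higher (Mycn) and 1 lower (Mxd4).

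**Figure D1:**
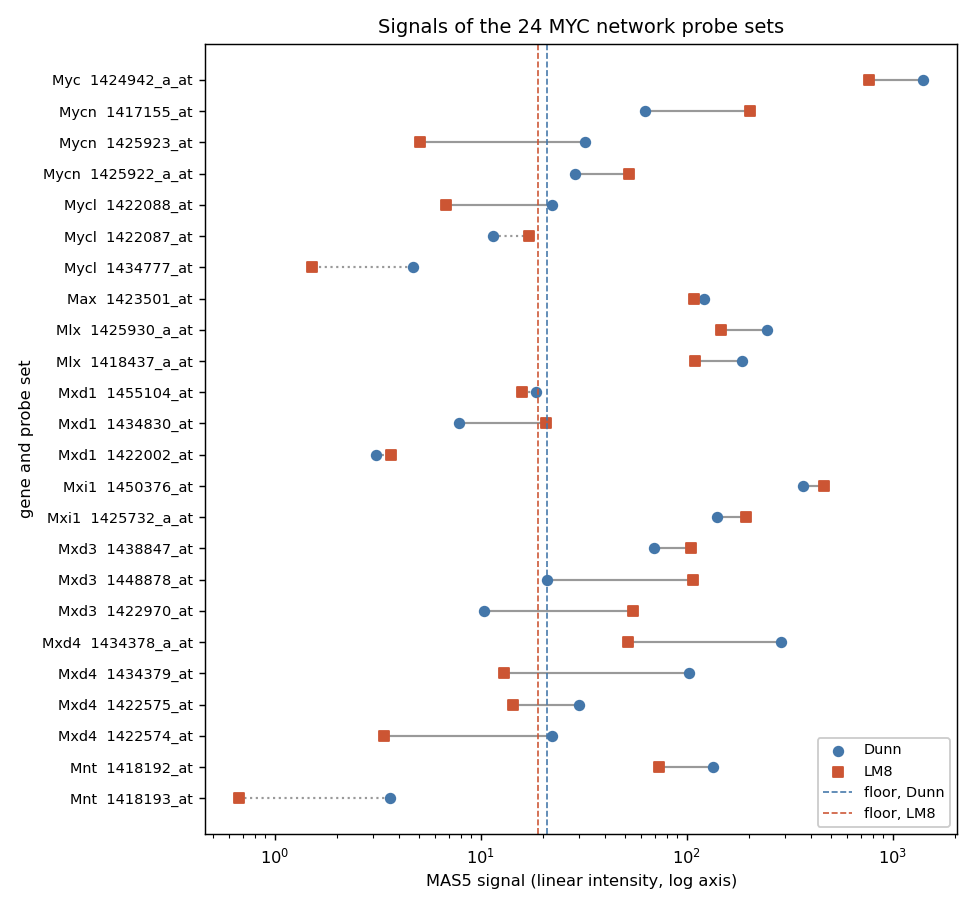
MAS5 signal (linear intensity, log axis) of each of the 24 member probe sets in Dunn (circles) and LM8 (squares), with dashed lines at the floors of 21.06 and 18.96 and dotted connectors for the 5 probe sets below both floors. Mycn 1417155_at and Mxd3 lie to the right in LM8, and all Mxd4 probe sets lie to the left.

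Among the 3 MYC genes, Myc and Mycn went in opposite directions. Myc, the widely expressed member that drives growth in many tumours, has 1 probe set (1424942_a_at, of the kind that matches several transcripts of a gene), with a signal of 1404 in Dunn and 768 in LM8. LM8 was thus 1.83-fold lower (log2 ratio -0.87), short of the 2-fold rule, and 10.4% of all measured probe sets had a lower ratio. More transcript per cell and more cells with the transcript cannot be told apart in such bulk RNA.

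Mycn, the paralog best known from embryonic tissues and neuroblastoma, has 3 probe sets that differed among themselves. The brightest (1417155_at) read 62.6 in Dunn and 203 in LM8, 3.24-fold higher, and 1.499% of measured probe sets had a higher ratio. The next (1425922_a_at) read 28.6 and 52.1, 1.83-fold higher. The third (1425923_at) went the other way, from 32.0 in Dunn to 5.05 in LM8, below the floor, a log2 ratio of -0.76. The pair that was higher in LM8 lay above the floors of both arrays, and the opposing one lay above the floor in Dunn alone. The filter thus fixed the direction of 1425923_at, which shares its source sequence with 1425922_a_at. Its ratio is a bound and enters the SD and the mean as such. The SD of the log2 ratio over the 3 was 1.25, against a median of 0.30 over the 5521 genes with at least 2 measured probe sets. Averaging the 3 probe sets brought Mycn to 0.60, under the 2-fold rule.

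Mycl, a paralog expressed in dendritic cells and amplified in some small cell lung cancers, was barely detected. Its single measured probe set (1422088_at) read 22.1 in Dunn, just above the floor, and 6.79 in LM8. The other 2 were below both floors, at 11.5 and 17.1 for 1422087_at and at 4.70 and 1.51 for 1434777_at. No direction can be read from signals at this level.

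The 2 hub genes were measured well above the floors and stayed under 2-fold. Max, the obligate partner of the MYC proteins, had 1 probe set (1423501_at) with a signal of 121 in Dunn and 108 in LM8, a log2 ratio of -0.16 that became 0.09 when arrays were scaled on the hybridisation controls. Mlx had 2 probe sets that gave nearly the same ratio. The brighter (1425930_a_at) read 245 in Dunn and 146 in LM8, and the dimmer (1418437_a_at) 186 and 110, log2 ratios of -0.75 and -0.76. The SD between them was 0.01, and LM8 was 1.68-fold lower on the brighter.

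The repressor arm held the widest differences. Mxd4, a repressor found in resting and differentiated cells, read lower in LM8 on each of its 4 probe sets, of which 1 lay above both floors. The brightest (1434378_a_at) read 288 in Dunn and 51.7 in LM8, both above the floors, 5.57-fold lower, and 0.493% of measured probe sets had a lower ratio. A second probe set from the same source sequence (1434379_at) read 102 and 12.9, at least 5.38-fold lower. The remaining pair, 1422575_at and 1422574_at, also from 1 shared source sequence, read 30.1 and 22.2 in Dunn and were below the floor in LM8, at 14.3 and 3.39. On all but the brightest LM8 was at its floor, and these count as measured through Dunn alone. Their direction was thus fixed by the filter, and their bounds cannot exceed the distance between Dunn and the floor. For the dimmest that distance is small, and no direction is taken from it.

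Mxd3, the family member expressed in dividing cells during S phase, read higher in LM8 on each of its 3 probe sets, by differing amounts. The brightest (1438847_at) read 69.3 in Dunn and 105 in LM8, 1.51-fold higher. A second (1448878_at) read 21.0 in Dunn, immediately under the floor, and 107 in LM8, at least 5.07-fold higher. The third (1422970_at) read 10.3 and 55.0, at least 2.61-fold higher. All 3 readings in LM8 were above the floor, and in Dunn 1 was. The other pair, from 1 shared source sequence, counts as measured through LM8 alone, so that the filter left it almost no room to come out lower. The mean log2 ratio over the 3 was 1.44 and rests mainly on this pair. With probe sets averaged Mxd3, and not Mycn, was the member gene above 2-fold.

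Mxi1, another MXD repressor, was slightly higher in LM8 on both of its probe sets. 1450376_at read 366 in Dunn and 462 in LM8, and 1425732_a_at read 140 and 194, with log2 ratios of 0.34 and 0.47. Mxd1, which is induced during differentiation of blood and skin cells, was near or below the floor. Its measured probe set (1434830_at) read 7.83 in Dunn and 20.7 in LM8, and the other 2, 1455104_at (18.6 and 15.8) and 1422002_at (3.10 and 3.68), were below both floors, so that no direction is given. Mnt, a broadly expressed repressor, read 134 in Dunn and 73.2 in LM8 on its measured probe set (1418192_at), 1.82-fold lower, and its other probe set (1418193_at) was below both floors at 3.63 and 0.674. The 5 repressor genes therefore showed no common direction, with 2 of 11 measured probe sets 2-fold higher (both Mxd3), 2 lower (both Mxd4) and 7 between.

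**Figure D2:**
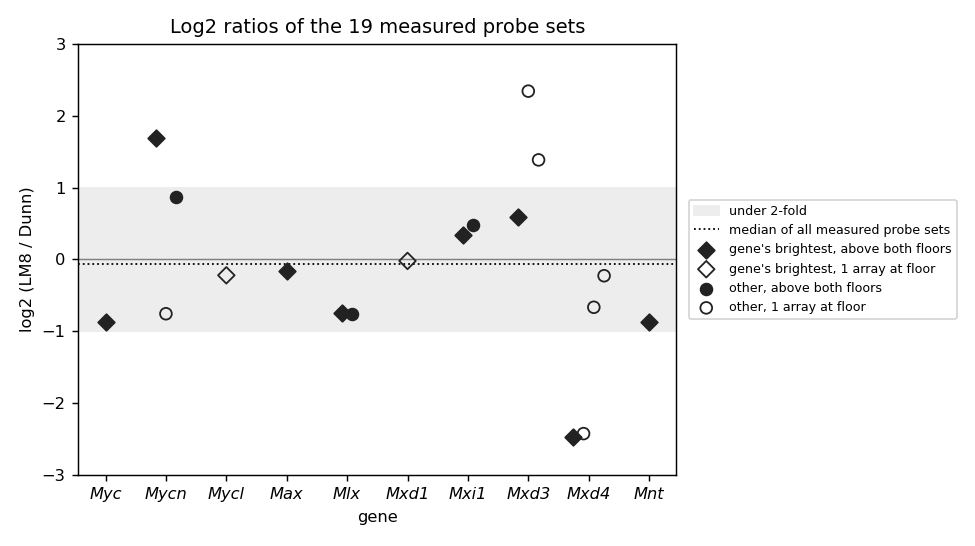
Log2 ratio of LM8 over Dunn for the 19 measured member probe sets by gene, with diamonds for the gene's brightest probe set, circles for its other probe sets and open symbols where 1 array was at its floor. The grey band covers differences under 2-fold; Mycn spans -0.76 to 1.70, Mxd3 0.60 to 2.34 and Mxd4 -2.48 to -0.23.

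The order of the members by gene value ran from Mycn at 1.70 through Mxd3 (0.60) and Mxi1 (0.34) to Mxd1 (-0.02, a value set by the Dunn floor), Max (-0.16) and Mycl (-0.22), and then to Mlx (-0.75), Mnt (-0.87), Myc (-0.87) and Mxd4 at -2.48. Neighbours from Mxd3 down to Mycl were at most 0.36 apart and those from Mlx to Myc at most 0.12, and no replicate spread was available to separate them. Signs depended on the scaling for Mxd1, Max and Mycl. Under 4 other scalings of the arrays the remaining 7 kept their sign, as the plot of gene values under each setting shows.

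**Figure D3:**
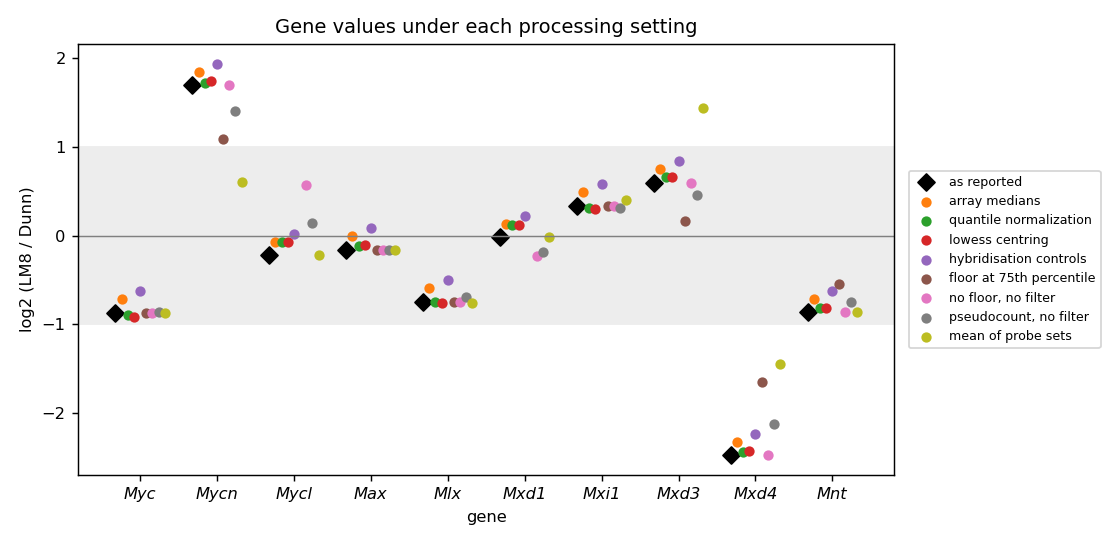
Log2 ratio of LM8 over Dunn of each member gene as reported (black diamonds) and under 8 other settings for scaling, floor and gene value (coloured circles). Mycn ranges from 0.60 to 1.94, Mxd4 from -2.48 to -1.45 and Myc from -0.91 to -0.63; Mycl, Max and Mxd1 fall on both sides of 0.

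Promoter sequence was examined because MYC network proteins bind the E-box and several of the genes encoding them carry it themselves. RefSeq promoter windows of GRCm38.p6, from 250 bases before to 50 after the gene start, were at hand for 9 of the 10 members (11 windows; not for Myc). The E-box CACGTG, which reads the same on both strands, occurred in 4 of these 9 members (Mxd4, Mnt, Mlx and Max), in 8.09% of all 27025 genes with a window and in 7.15% of all 32851 windows. It lay 219 bases before the start in Mxd4, 123 in Mnt and 40 in Mlx, and spanned the start in Max. Stretches of 60 bases are shown for the 3 genes with the site upstream, 5′ to 3′ on the gene's strand, with the E-box in capitals: Mxd4 at chr5:34187897-34187956 (minus strand), Mnt at chr11:74830774-74830833 (plus strand) and Mlx at chr11:101087223-101087282 (plus strand).
Mxd4: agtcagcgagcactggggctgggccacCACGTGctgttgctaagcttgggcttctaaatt
Mnt: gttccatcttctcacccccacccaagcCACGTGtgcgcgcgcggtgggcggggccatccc
Mlx: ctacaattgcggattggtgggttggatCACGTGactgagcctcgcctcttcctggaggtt

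The 4 members with an E-box had log2 ratios below 0 (Mxd4 -2.48, Mnt -0.87, Mlx -0.75 and Max -0.16), with the sign of Max turning under 1 scaling. Of the 5 members whose windows lack these letters, Mycn, Mxd3 and Mxi1 were above 0, and Mxd1 and Mycl were too near the floors for a direction. This grouping was noticed after the values were seen. Over the measured genes that have a promoter window the median log2 ratio was -0.12 for 1109 with an E-box and -0.08 for 8505 without. In LM8, 11.4% and 8.55% were 2-fold lower, 4.78% and 6.54% were 2-fold higher, and 58.4% and 54.8% lay below 0.

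Mycn, the 1 member gene at least 2-fold higher in LM8 on its brightest probe set, is a known target of E2F factors. Its window was searched for the E2F-type sites TTTGGCGC and TTTCGCGC on both strands. It held 3 matches, between 183 and 168 bases before the start, of which the first overlaps the second, on the reverse strand. Such a match occurred in 0.813% of all promoter windows and in no other member. Ratios of genes with and without such a match were not compared. The stretch is at chr12:12941970-12942046 (minus strand), with the matches in capitals.
Mycn: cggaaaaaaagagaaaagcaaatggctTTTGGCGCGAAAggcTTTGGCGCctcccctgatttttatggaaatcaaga

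Genes next to Myc on chromosome 15 were also mostly lower in LM8. Among the 25 measured genes on either side of Myc, in the gene order of GRCm38.p6, the median log2 ratio was -0.50, 11 of 50 were at least 2-fold lower, 1 was higher and 37 lay below 0. Of these 37, Sntb1, Fbxo32, Trmt12, Tg, Sla, St3gal1, Khdrbs3 and Slurp1 count as measured through Dunn alone, so the filter fixed their direction. The sign of Trib1 was set by the Dunn floor. Such genes were not counted apart for the whole chromosome or the array. The counts for the 50 genes were not recomputed under other scalings. The whole of chromosome 15 behaved similarly, with a median of -0.40 over 476 measured genes, 19.5% at least 2-fold lower and 2.31% higher, and 363 genes below 0. Over all 11830 measured genes the median was -0.08, 8.84% were at least 2-fold lower and 6.51% higher, and 6545 lay below 0. The medians of the other 19 chromosomes ran from -0.28 (chromosome 9) to 0.34 (chromosome 14). The difference between Myc and the chromosome's median was -0.47, and 24.4% of its measured genes had a lower ratio than Myc, against 11.5% of genes on the array. DNA copy number was not measured.

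The nearest measured gene after Myc is Pvt1, the long non-coding RNA gene of the MYC locus, and it had 5 measured probe sets. All 5 were lower in LM8, from -0.06 to -1.38 in log2 ratio, and the brightest read 271 in Dunn and 206 in LM8. The probe set at -1.38 read 49.2 in Dunn and was at the floor in LM8, so the filter fixed its direction. The one at -0.06 read 46.6 and 44.7, and its sign under other scalings was not tested. Next in order came Macroh2a3, a histone gene of the macroH2A kind (53.3 and 89.0, higher in LM8), and the annotated gene Gm20740 (31.8 and 22.5). On the other side the nearest were the pseudokinase gene Trib1, near the floor in both lines, Nsmce2, a subunit gene of the SMC5/6 complex (239 and 227), and Washc5, a subunit gene of the actin-regulating WASH complex (1741 and 788). The higher gene of the 50 was Dscc1, which serves sister chromatid cohesion, at 54.2 and 146. The widest differences in the window were the thyroglobulin gene Tg, at least 11.2-fold lower in LM8 (212 in Dunn), Khdrbs3, an RNA-binding protein gene (at least 3.87-fold), the heparan sulfate synthesis gene Ext1 (3.27-fold) and the Wnt-induced matricellular gene Ccn4 (2.89-fold, 2234 against 773). Derl1, Rnf139, Ndufb9, Washc5, Ndrg1, Chrac1 and Jrk were the other 7 that were 2-fold lower. These 7 lay close to the 2-fold rule, from 2.001-fold (Chrac1) to 2.29-fold (Jrk) lower. The 2 probe sets of Rnf139 differed in sign (log2 ratios of -1.12 and 0.25), and the dimmer one of Ext1 was at -0.24.

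**Figure D4:**
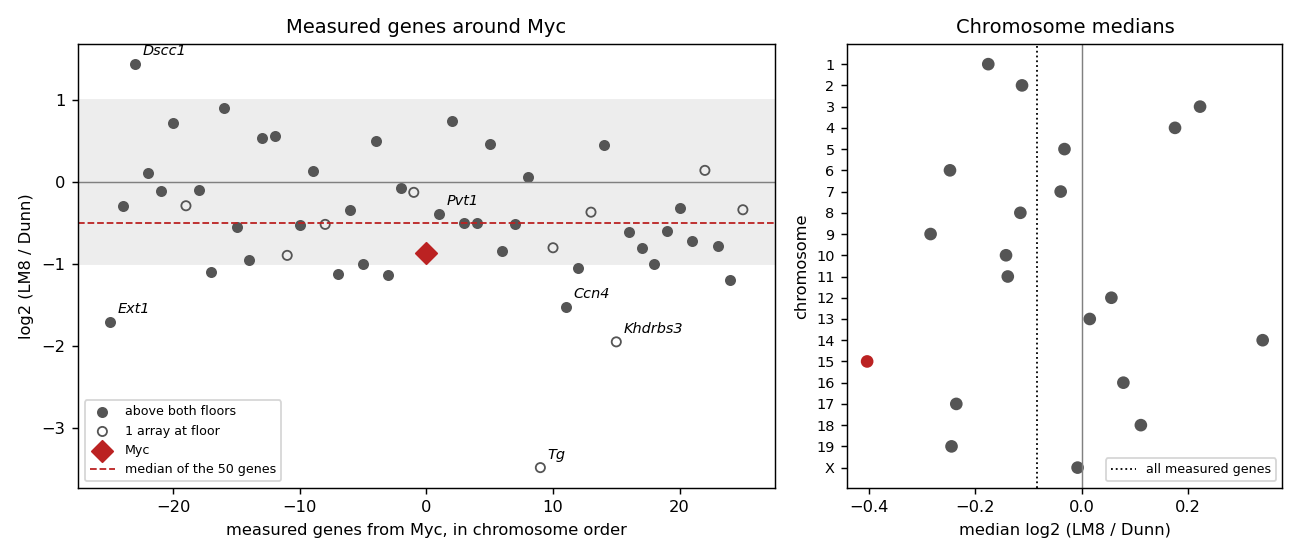
Left, log2 ratio of LM8 over Dunn of the 25 measured genes on either side of Myc against their order on chromosome 15, with Myc as a red diamond and open circles where 1 array was at its floor; right, median log2 ratio of the measured genes of each chromosome, chromosome 15 in red. The dashed line marks the window's median of -0.50, and chromosome 15 lies at -0.40.

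None of the other members lies on chromosome 15. Mycn and Max lie on chromosome 12 (median 0.06), Mxd4 on chromosome 5 (-0.03) and Mxd3 on chromosome 13 (0.02), so that the differences from the chromosome's median were 1.64 for Mycn and -2.44 for Mxd4. Mnt and Mlx share chromosome 11, whose median was -0.14, and their differences from it were -0.73 and -0.61.

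Genes that work with the MYC network were given by lists. Of 14 measured cofactors, which include the histone acetyltransferase scaffold Trrap, the helicases Ruvbl1 and Ruvbl2 and, for the MXD side, Sin3a, Sin3b, Hdac1 and Hdac2, none was 2-fold apart in either direction, and 11 lay above 0. Of all measured genes 6.51% were 2-fold higher and 8.84% lower, and 44.7% lay above 0. The cofactor median was 0.33, with Actl6a, a subunit of chromatin remodelling complexes, at 398 in Dunn and 755 in LM8 and Ruvbl2 at 1127 and 1899. Mga, which encodes another MAX partner, and the Mondo protein gene Mlxip were measured at log2 ratios of -0.44 and -0.04, and Mlxipl was below both floors.

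Among 13 measured regulators of MYC protein stability, 2 passed 2-fold upwards in LM8 and 2 downwards (15.4% each, against 6.51% and 8.84% of all measured genes), and the median was -0.13. Cip2a, an inhibitor of the phosphatase PP2A that stabilises MYC, read 54.4 in Dunn and 348 in LM8, 6.40-fold higher on its measured probe set. Aurka, a mitotic kinase that protects N-MYC from degradation, read 162 and 647, 3.998-fold higher on its measured probe set. The other probe sets of Cip2a and Aurka were below both floors. Usp36, a nucleolar deubiquitinase of MYC, read 112 and 42.9 on its brightest probe set, although log2 ratios of its 3 probe sets spanned -1.38 to 0.03. Pim1, a kinase that cooperates with MYC, read 307 and 152, 2.02-fold lower. On their brightest probe sets the ubiquitin ligase genes stayed under 2-fold. Fbxw7 read 96.5 and 86.1, Huwe1 619 and 791, Fbxl14 109 and 64.9, and Skp2 252 and 476. All 6 Skp2 probe sets were higher, from 0.64 to 1.41 in log2 ratio, so that part of them passed 2-fold. Those of Huwe1 spanned -0.26 to 1.67.

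Genes known to be induced by MYC proteins were mostly under 2-fold, as were 10014 of all 11830 measured genes. Of all measured genes 6.51% were 2-fold higher in LM8 and 8.84% lower, against 2.94% each of the ribosome biogenesis genes below and 6.45% and 0% of the metabolism and growth genes. Of 34 ribosome biogenesis genes 1 was higher (Tcof1, a nucleolar factor, 145 and 305), 1 lower (the exosome subunit gene Exosc5, 411 and 196) and 32 between, with a median of -0.08 and 15 above 0. The nucleolar protein genes Ncl (4704 and 5629), Npm1 (7439 and 6496) and Fbl (1730 and 2576) were all bright. Of 31 metabolism and growth genes 2 passed 2-fold upwards and none downwards, the median was 0.29 and 24 lay above 0, where 44.7% of all measured genes lay above 0. Tfrc, the transferrin receptor gene, read 465 in Dunn and 1062 in LM8, and its 3 probe sets had log2 ratios between 1.19 and 2.09. Ccnd2, a cyclin gene, read 415 and 934, and those of its 7 probe sets lay between 0.77 and 1.63. Odc1, the first enzyme of polyamine synthesis (1205 and 1782), Cad, of pyrimidine synthesis (226 and 391), and Ldha, the lactate dehydrogenase gene (4243 and 7413), were below 2-fold.

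Genes known to be repressed by MYC spanned the widest range of the lists plotted, with 5 of 17 lower in LM8, 4 higher and 8 between, and a median of -0.41. The shares were 29.4% lower and 23.5% higher, against 8.84% and 6.51% of all measured genes. The lower ones were the cell cycle inhibitor genes Cdkn1a (1325 and 567) and Cdkn2b (200.2 and 97.1), the growth arrest genes Gadd45a (758 and 79.4) and Btg2 (146 and 62.0), and Ndrg1 (2353 and 1130), which is also one of the genes near Myc. Clu, the clusterin gene, was higher on each of its 4 probe sets, from 2.40 to 3.35 in log2 ratio, and read 78.6 and 414 on the brightest. Gas1 (324 and 790), Cdkn2c (123 and 272) and Gadd45b (36.9 and 76.9) were the other higher genes, although log2 ratios of the 3 Gadd45b probe sets spanned -0.08 to 1.06. Targets of the Mondo and MLX pair were all dim. Txnip, the standard reporter of Mondo activity, read 56.7 in Dunn and 52.3 in LM8, Arrdc4 66.0 and 64.6, and the 1 gene of 5 that was 2-fold lower was Tkfc, at 43.8 in Dunn and below the floor in LM8.

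**Figure D5:**
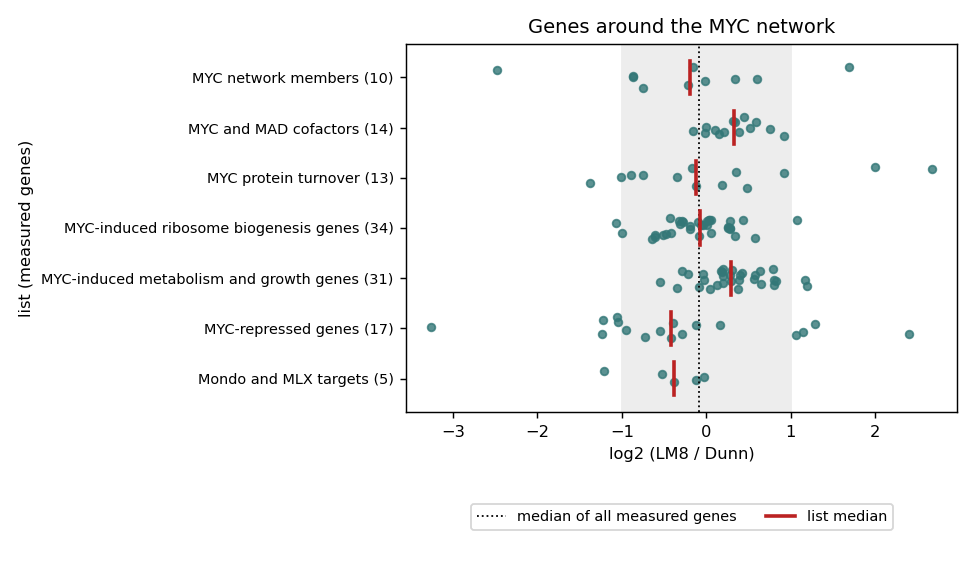
Log2 ratio of LM8 over Dunn of each measured gene (points) in the member list and 6 lists of cofactors, stability regulators and targets, with the list median as a red bar, the median of all measured genes (-0.08) as a dotted line and the grey band for differences under 2-fold. List medians lie between -0.41 (MYC-repressed genes) and 0.33 (cofactors).

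Scaling moved these small medians. The median of all measured genes was 0.07 with array medians made equal and 0.16 with scaling on the hybridisation controls, and the shares of genes 2-fold higher and lower became 8.66% and 6.55% in the first and 10.5% and 5.40% in the second. The medians of the cofactor and the metabolism list stayed above 0, and those of the repressed list, of the genes around Myc and of chromosome 15 below 0, under all 8 alternatives run for them. Those of the ribosome biogenesis list, with a range of -0.21 to 0.17, and of the stability list, with a range of -0.13 to 0.18, changed sign.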

How the data were processed

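One array per cell line was analysed. Each deposited value is an intensity on a linear scale, for which the submitters' processing notes name MAS5; its version and settings are not given in the sources used here, and detection calls were not used. Both arrays had a 2% trimmed mean of 100 over 45101 probe sets. The scanner's experiment sheets give the same chip type and hybridisation day for both. Control probe sets (64) were left out, the rest put on a common trimmed mean, and floored at the array median. Names came from the platform annotation (34958 probe sets with 1 symbol, 932 with several, 9160 non-control probe sets not listed), updated by gene identifier (99.4% matched) to a GRCm38.p6 table. The brightest measured probe set (mean log2 signal) stood for its gene, and the size rule was 2-fold.

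Members and lists were chosen with earlier results of these data known, so no list supports a direction. Named from each list were up to 4 genes at least 2-fold apart with the largest log2 ratios, and those that spell out a short count; other list genes were chosen by role after their values were seen. Around Myc, the nearest 3 on either side and those 2-fold apart were named. Alternatives were 4 scalings, 3 floors, a 3-fold rule and averaged probe sets. Software was pandas 2.3.3 and numpy 2.4.6 under Python 3.11.15, with scipy 1.17.1 for trimmed means, statsmodels 0.14.6 for lowess and matplotlib 3.10.9 for plots.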

Additional observations from a re-analysis of the deposited data

How the results depend on the processing

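No paired analysis was possible because each line has 1 array, and for the same reason no replicate could be left out. The number of arrays and the floors limit the precision. Of 258 values recomputed under 9 alternatives, 221 stayed within 1.5 times (counts) or within 0.30, the median SD among a gene's probe sets (log2 values), and 37 moved beyond that. Only the log2 values of Mycn and Mxd4 were reported at least 2-fold apart, and both kept their sign. For Mxd4 the filter had fixed the sign of all but the brightest probe set. Counts have no sign to change. Of the 134 log2 values among the 258, 13 had the opposite sign to the reported one, each reported under 2-fold. These were values of Mycl (up to 0.57), Max (0.09), Mxd1 (up to 0.22) and the medians of the stability (up to 0.18) and ribosome biogenesis lists (up to 0.17). The count of member genes was 1 higher and 1 lower in each alternative, but the higher gene was Mxd3 (1.44) in place of Mycn (0.60) with probe sets averaged. The floor at the 75th percentile left 12 member probe sets and 8 genes measured, with 1 probe set higher and 1 lower. Of all probe sets measured under it, 4.69% were higher and 5.09% lower. With neither floor nor filter 4 of 24 member probe sets were higher and 8 lower, where 16.3% and 20.4% of all 45037 probe sets were. Under the floor at the 75th percentile Mycn was 1.08 and Mxd3 0.16.

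The cofactor list had 1 higher gene with array medians and 1 with hybridisation controls. In the stability list the lower genes numbered 1 with array medians, hybridisation controls, the higher floor, the pseudocount and averaged probe sets, and 0 with the 3-fold rule. The higher genes of that list numbered 3 with array medians, hybridisation controls and averaged probe sets. In the ribosome biogenesis list the higher genes numbered 0 with the pseudocount, the 3-fold rule and averaged probe sets, and the lower ones 0 with array medians, hybridisation controls and the 3-fold rule and 2 with quantile normalization and lowess centring. The metabolism list had 6 higher genes with hybridisation controls, 0 with the 3-fold rule, and 1 lower with no floor. In the repressed list the higher genes numbered 1 with the 3-fold rule, and the lower ones 3 with array medians, 1 with hybridisation controls and 1 with the 3-fold rule. Apart from the stricter size rule, the cause was not tested.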

Other observations

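Control probe sets for the transferrin receptor, which were kept out of the gene counts, lie along the same transcript as the MYC-induced gene Tfrc. They read 113 in Dunn and 345 in LM8 at the 3′ end, 32.4 and 112 in the middle and 37.0 and 147 at the 5′ end, log2 ratios of 1.61, 1.78 and 1.99, within the range of the 3 gene probe sets.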
